A study of Mus musculus with 2 samples.

Results

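Rora, Il23r, Ccr6, Il1r1, Tmem176a and Tmem176b are 6 genes tied to the identity and responsiveness of T helper 17 (Th17) cells, and they were chosen by name out of 11971 genes in the deposited table. Their RNA was followed in CD4 T cells from the inflamed colons of 12 Rag-/- mice, hosts that lack T and B lymphocytes unless these are transferred. The 6 KO mice had received BCL-6 deficient CD4+ T cells, and the 6 WT mice had received wild-type T cells, described in the design as naive or as CD4+, CD45RBhigh and CD25-. The labels do not say whether the BCL-6 deficient donor cells were sorted the same way, which Bcl6 allele or Cre line they carried, how old the mice were or how many donors were used. From each colon, TCRβ-positive CD4 cells were isolated by flow cytometry, each mouse's cells carried a hashtag antibody of their own, and all were run together in 1 single-cell library of 5′ chemistry. The deposited hashtag labels HT1 to HT6 are the KO mice and HT7 to HT12 the WT mice, and the mouse is the replicate throughout. Transfer of T cells into such hosts causes colitis, and the comparison asks how T cells lacking the transcriptional repressor BCL-6 differ in the colon.

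Th17 cells are helper T cells of barrier tissues that make IL-17A and IL-22, and nuclear receptors of the ROR family, among them RORα, encoded by Rora, contribute to their programme. IL-1 and IL-23, sensed through receptors that contain the products of Il1r1 and Il23r, expand these cells and sustain their cytokine production, and variants of the IL-23 receptor gene are linked to inflammatory bowel disease in people. CCR6, the receptor for the chemokine CCL20, guides Th17 cells to mucosal sites. TMEM176A and TMEM176B are related membrane proteins of the MS4A-like family with cation channel activity, whose neighbouring genes are strongly expressed in Th17 cells and related lymphocytes.

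In outline, Ccr6, Tmem176a, Tmem176b, Il1r1 and Rora were all lower in KO mice when every colonic CD4 T cell was counted, whereas Il23r did not pass the test. Among the cells that the authors labelled Th17, Rora stood at the same level in both genotypes, Il23r and Il1r1 did not differ beyond their spread, and Tmem176a was moderately lower. Ccr6 was rare, with few UMIs (unique molecular identifiers, each standing for 1 captured RNA molecule). Over all cells it passed the filter on low counts mainly through its level in WT mice. Inside the Th17 cluster it did not pass the filter on low counts, and its mean level was lower in KO mice. Rora showed no detected difference in Th17 cells and was lower in KO mice in recirculating, cytotoxic and the general CD4 clusters. A direct test of that contrast passed against cytotoxic and the general CD4 clusters, and not against recirculating cells.

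The table held 57634998 UMIs in 18860 cells, 9708 of them from KO and 9152 from WT mice, with 1409 to 1736 cells and 4252124 to 5523025 UMIs per mouse. The median depth per cell ran from 2381 to 2997 UMIs in KO mice and from 2864 to 3102.5 UMIs in WT mice. The authors' annotation gives 7 groups of cells: recirculating, cytotoxic, Th17, cycling and regulatory cells, and the clusters numbered 1 and 3 in their clustering, whose subset label says only that they are CD4 T cells and which appear here as unnamed 1 and unnamed 3. The Th17 markers Il17a, Il17f, Il22 and Ccr6, the last one of the 6 genes, were highest in the Th17 cluster, and the markers of cytotoxic, cycling and regulatory cells were highest in their own clusters. Of the markers of recirculating cells, S1pr1 was highest in the cluster of that name, while Klf2 and Ccr7 were highest in regulatory cells. Th17 cells numbered 44 to 178 per KO mouse and 137 to 391 per WT mouse, with 563 and 1658 in total. Markers of most other cell types were low: the myeloid and dendritic list summed to 204 to 288 CPM (UMIs of the gene scaled to a common library total, as edgeR's cpm does) in KO mice and 215 to 267 CPM in WT mice, with all 11 of its 11 genes in the table. Of the 6 markers of gamma-delta T cells, which the sort on TCRβ should also remove, 4 were in the table and summed to 32 to 55 CPM in KO mice and 41.5 to 74.5 CPM in WT mice. Epithelial markers summed to 5.02 to 11.2 CPM in KO mice and 9.05 to 22.9 CPM in WT mice. Kit, a marker of group 3 innate lymphoid cells, which lack the T cell receptor used in the sort, had 198 UMIs in KO mice and 201 in WT mice. Among other markers of these cells, Lta had 604 UMIs in KO and 1044 in WT mice, and Id2 11810 and 10673. Il7r had 25999 and 24916, so this list was not low as a whole, and its genes differed in direction between genotypes. Of the 4 B and plasma cell markers only Igkc was in the table, with 44 UMIs in KO mice and 536 in WT mice, and of the neutrophil and mast cell markers 0 were. The part of these other cells in the results was not tested. The count of Bcl6 itself cannot check the genotype labels, since reads from 5′ chemistry need not cover the deleted part, which the labels do not name.

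The 6 genes lie on 4 chromosomes (GRCm38). Rora spans chr9:68653786-69388246 on the plus strand and contains the antisense gene model Gm15511, which is in the table as a gene of its own. Il23r lies at chr6:67422932-67491855 on the minus strand, Ccr6 at chr17:8236043-8257141 on the plus strand and Il1r1 at chr1:40225080-40317257 on the plus strand. Tmem176a, at chr6:48840919-48847071 on the plus strand, and Tmem176b, at chr6:48833818-48841496 on the minus strand, are divergent neighbours whose annotated starts overlap by 578 bases. The sources used here do not state whether strand was considered in counting, so reads in that overlap cannot be assigned to either gene with certainty.

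Because ROR proteins are the factors that define this lineage, the promoter windows of the 6 genes were searched for their response element. RefSeq gave 11 windows of 300 bases (250 before to 50 after a transcription start, GRCm38.p6) for the 6 genes. The ROR response element consensus, searched by name on both strands, was found in 1 window of Il23r and in 1 window of Ccr6, and 0.384% of all 32851 promoter windows of that length hold it. The 250 bases before those starts are shown, at chr6:67491856-67492105 on the minus strand for Il23r and chr17:8235793-8236042 on the plus strand for Ccr6, 5′ to 3′ along the gene, with the bases that match the consensus in capitals.
Il23r: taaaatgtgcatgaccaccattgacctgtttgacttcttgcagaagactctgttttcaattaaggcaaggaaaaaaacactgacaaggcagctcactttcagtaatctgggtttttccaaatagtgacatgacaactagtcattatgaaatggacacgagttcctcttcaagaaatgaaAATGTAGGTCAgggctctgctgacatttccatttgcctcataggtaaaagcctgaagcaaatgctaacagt
Ccr6: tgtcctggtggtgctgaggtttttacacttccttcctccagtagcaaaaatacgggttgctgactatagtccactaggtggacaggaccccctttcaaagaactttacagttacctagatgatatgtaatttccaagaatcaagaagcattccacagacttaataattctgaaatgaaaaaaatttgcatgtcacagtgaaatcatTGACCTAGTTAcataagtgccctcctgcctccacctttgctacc
In Il23r the match reads along the gene and begins 71 bases before the start, and in Ccr6 it reads on the opposite strand, so that its core AGGTCA appears as TGACCT. The Il23r window holds the core AGGTCA once more, on the opposite strand. The Ccr6 window also holds the STAT palindrome TTCNNNGAA at 2 places, bases 94 to 102 and 131 to 139 of the window, and 8.3% of all windows hold this motif on either strand. The shorter core AGGTCA alone occurs in 16.3% of all windows and TAGGTCA in 2.61%, both of which lie inside the 2 consensus matches, and the BCL6 consensus TTCCTAGAA, found in 0.411% of all windows, occurred in none of the 11 windows. These are matches of letters within the windows and say nothing about binding in these cells.

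Within either genotype all 6 genes had their highest mean level in the Th17 cluster. This is a description and was not tested, because the authors cut the clusters using gene expression that includes these genes. Il23r, Il1r1, Tmem176a and Tmem176b were set apart most clearly: in both genotypes the range over mice in the Th17 cluster lay above the range in the next highest cluster. For Ccr6 the ranges of Th17 and regulatory cells overlapped in both genotypes. Pooled over KO mice, Ccr6 stood at 7.12 CPM (5 UMIs) in regulatory cells and 5.87 CPM (11 UMIs) in Th17 cells. Il1r1 averaged 116 ± 32.1 CPM in Th17 cells of KO mice and 135 ± 22.1 CPM in those of WT mice (SD, n = 6 each), against 12 ± 5.82 CPM and 20.3 ± 5.85 CPM in recirculating cells of KO and WT mice. Rora was the most broadly expressed, with a UMI in 14868 of the 18860 cells, while Ccr6 was seen in 214 cells, Il23r in 455, Il1r1 in 1112, Tmem176a in 4876 and Tmem176b in 6046.

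**Figure D1:**
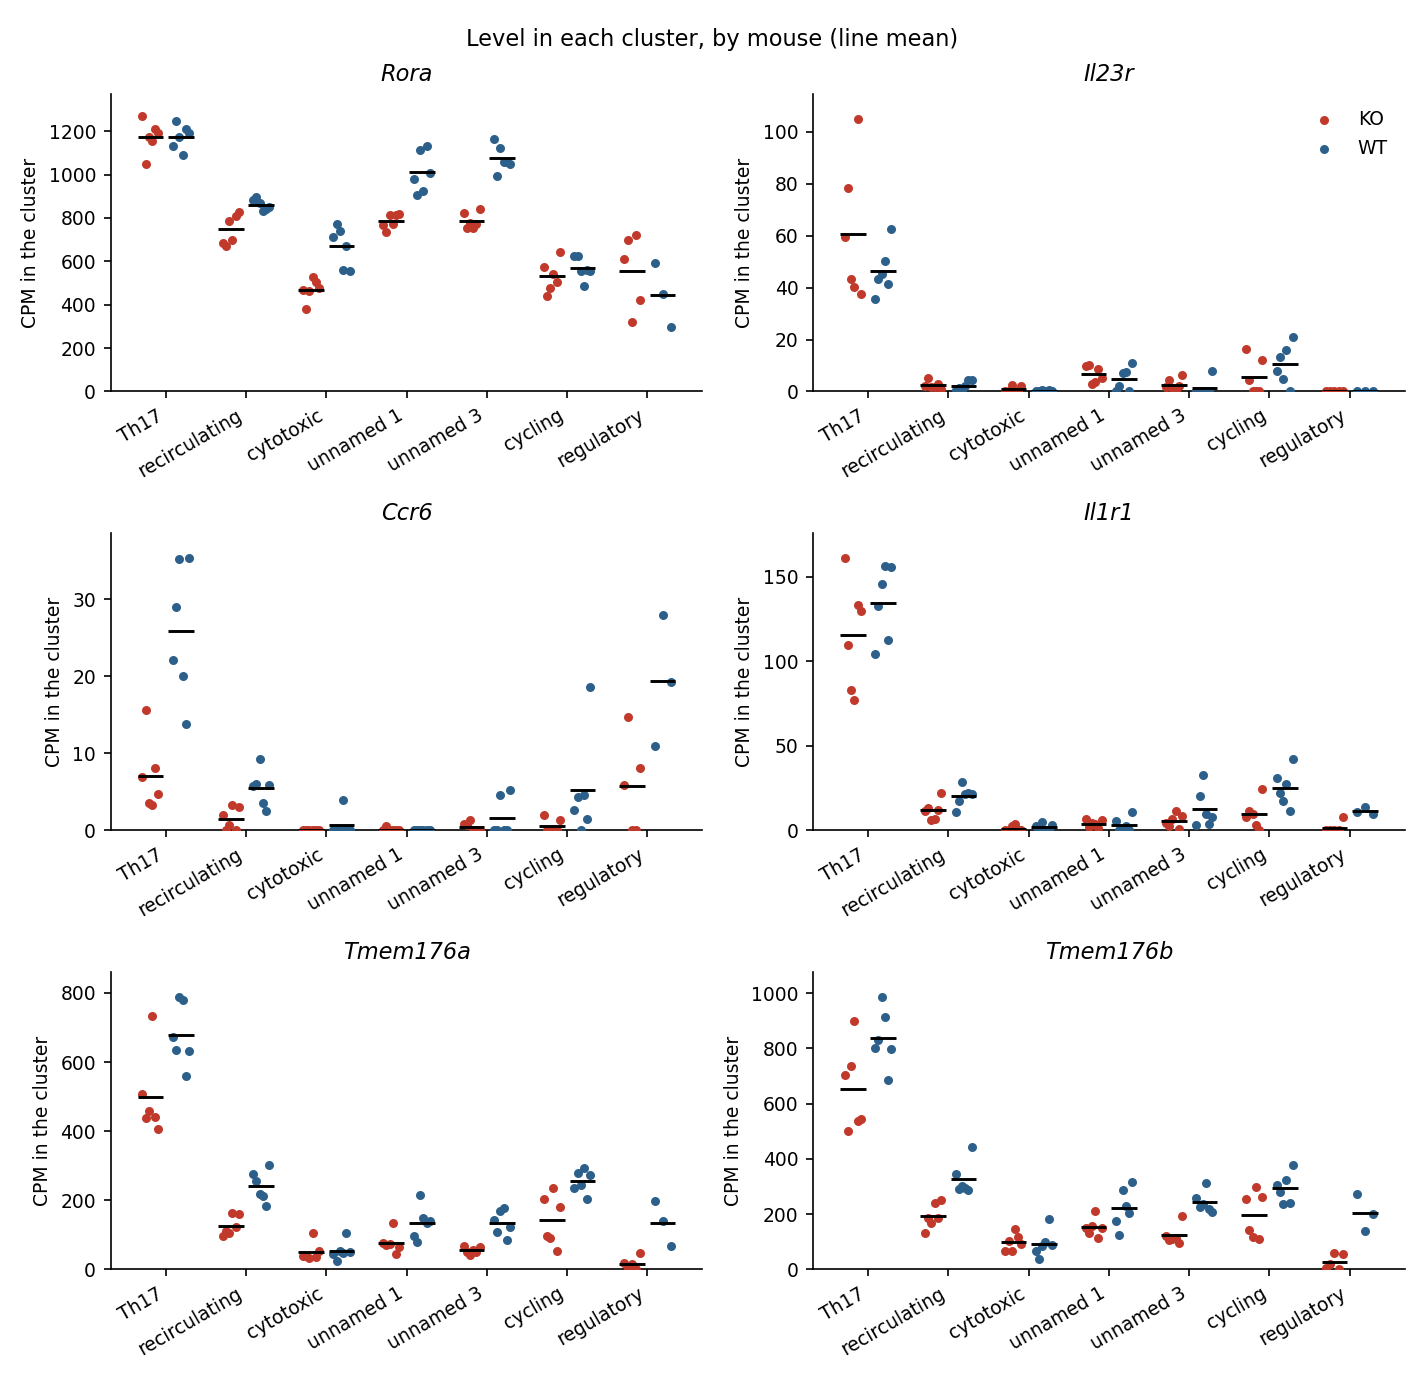
CPM of each of the 6 genes in each cluster of cells, 1 point per mouse, KO left of WT, with bars at the mean. The Th17 cluster has the highest mean for every gene in both genotypes, with Ccr6 overlapping between Th17 and regulatory cells. Rora, Tmem176a and Tmem176b also have sizeable levels outside the Th17 cluster.

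The source of the UMIs differed between genotypes. The Th17 cluster supplied 6.71% of all UMIs in KO mice and 20.6% in WT mice. It supplied 48.1% of the Il23r UMIs in KO mice and 83% in WT mice, and 54.7% of the Il1r1 UMIs in KO mice and 74.7% in WT mice. For Ccr6 the Th17 share was 31.4% of 35 UMIs in KO mice and 69.2% of 237 UMIs in WT mice. The pair Tmem176a and Tmem176b drew 27% and 22.5% of their UMIs from Th17 cells in KO mice, against 52.7% and 49.4% in WT mice. Rora drew 10.5% from Th17 cells in KO mice and 27.8% in WT mice, so most Rora RNA lay outside the cluster in both genotypes. A second source of Il23r stood out in KO mice: unnamed 1 held 62 of its 210 UMIs (29.5%), against 9 of 353 (2.55%) in WT mice. That cluster held 30.7% of all UMIs in KO mice and 7.68% in WT mice, so its part of the Il23r UMIs was close to its part of all UMIs in KO mice and below it in WT mice.

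**Figure D2:**
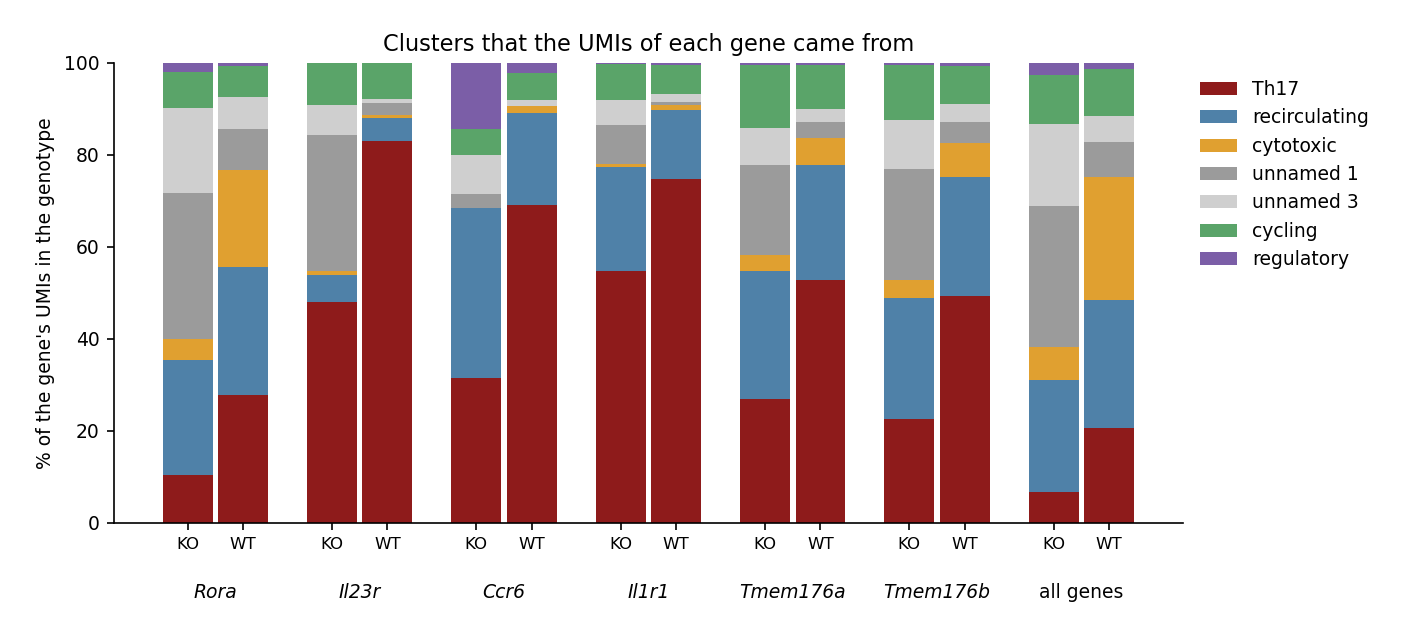
Share of each gene's UMIs (percent) that came from each cluster, KO bar left of WT bar, summed over the 6 mice of a genotype, with all genes together for comparison. The Th17 part is smaller in KO than in WT mice for every gene, as it is for all genes together.

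Over all colonic CD4 T cells, 5 of the 6 genes, all tested, were called lower in KO mice (edgeR quasi-likelihood test, Benjamini-Hochberg adjusted p under 0.05). Of the 9861 genes tested, 7.21% were called lower. Among the 5, Ccr6 passed the filter on low counts mainly through its level in WT mice, so its call adds no support of its own. The ranges of KO and WT mice did not overlap for Ccr6, Tmem176a and Tmem176b, a pattern with KO lower that 2.35% of the tested genes showed. In sums over all cells, fewer Th17 cells and less RNA per Th17 cell cannot be told apart. Levels within clusters are given further on, with the limit that the clusters were cut using expression that includes these genes.

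Rora, which encodes RORα, had 705, 765 and 808 CPM (lowest, median and highest mouse) in KO mice and 807, 869 and 904 CPM in WT mice. Its ranges touched only at the highest KO and the lowest WT mouse. The log2 fold change was -0.23 ± 0.05 (SE, edgeR adjusted p = 0.00275), a small difference seen over many cells.

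The receptor genes differed among themselves. Ccr6 had 0.427, 1.21 and 2.17 CPM (lowest, median, highest) in KO mice and 2.32, 7.75 and 14.3 CPM in WT mice. Behind those levels lay 2 to 12 UMIs per KO mouse and 11 to 71 per WT mouse, so counting error is large, yet no KO mouse reached the lowest WT mouse. Its log2 fold change was -2.69 ± 0.40 (adjusted p = 2.9e-04). Ccr6 passed the filter on low counts mainly through its level in WT mice, so this call adds no support of its own. An edgeR fit with no filter gave -2.69 ± 0.39 (adjusted p = 2.4e-04), in a fit that called 752 of its 11971 genes lower. Il1r1, the signalling chain of the IL-1 receptor, had 7.29, 10.4 and 29.5 CPM in KO mice and 19.6, 35.0 and 56.7 CPM in WT mice. KO mouse HT6 lay among the WT mice and the other KO mice below all of them, with a log2 fold change of -1.45 ± 0.30 (adjusted p = 0.00399). Il23r, the specific chain of the IL-23 receptor, had 4.34, 8.24 and 10.1 CPM in KO mice and 5.68, 9.25 and 22.4 CPM in WT mice. Its ranges overlapped broadly, and its log2 fold change of -0.71 ± 0.30 did not pass (adjusted p = 0.135).

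The TMEM176 pair was the most abundant after Rora. Tmem176a had 76.9, 106 and 186 CPM in KO mice and 188, 266 and 331 CPM in WT mice, and Tmem176b had 135, 177 and 262 CPM in KO mice and 275, 339 and 441 CPM in WT mice. Every KO mouse lay below every WT mouse for both genes. The log2 fold change was -1.20 ± 0.20 for Tmem176a (adjusted p = 7.0e-04) and -0.91 ± 0.16 for Tmem176b (adjusted p = 0.00107). The ratio of Tmem176a to Tmem176b UMIs was 0.613 ± 0.0609 in KO mice and 0.759 ± 0.0461 in WT mice, which is given as a description. In Th17 cells the same ratio was 0.766 ± 0.0899 in KO mice and 0.81 ± 0.0319 in WT mice.

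**Figure D3:**
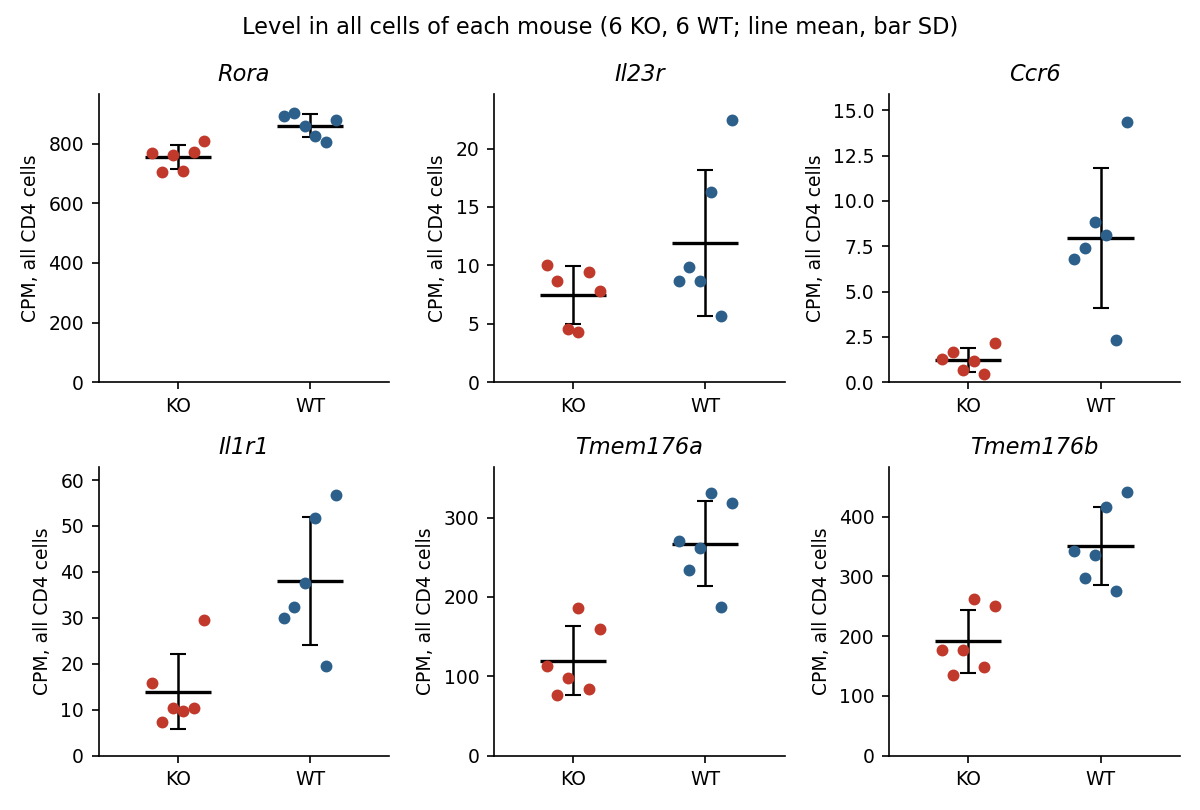
CPM of the 6 genes over all cells, 1 point per mouse, KO left of WT, with the mean and SD of 6 mice per genotype. KO and WT mice are fully separated for Ccr6, Tmem176a and Tmem176b, meet at 1 point for Rora and overlap for Il1r1 and Il23r.

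Totals were recomputed in a pair of ways, with cluster shares held alike or exchanged. Both use clusters cut on expression that includes these genes, so shares and levels are not independent, and the part of cell composition was not tested. First, the fit was repeated on sums in which each cluster had the same weight in every mouse, namely its share of all cells pooled. These sums were rescaled levels rounded to whole numbers, clusters with few cells included, and the fit treated them as counts. Small counts, such as those of Ccr6 in Th17 cells of KO mice, were thereby scaled up, so their counting error is understated. By this measure 4 genes were called lower in KO mice (Rora, Ccr6, Tmem176a and Tmem176b), against 4.9% of all genes tested called lower and 4.1% higher. Rora kept a log2 fold change of -0.34 (adjusted p = 3.7e-05), Ccr6 of -1.94 (3.7e-04), Tmem176a of -0.74 (2.2e-04) and Tmem176b of -0.59 (2.7e-04). Il1r1 was no longer called at -0.46 (adjusted p = 0.0657) and Il23r turned to 0.30 (adjusted p = 0.549).

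Second, pooled levels were recomputed with the cluster shares of 1 genotype and the cluster levels of the other. For Il1r1 the KO total was 14.5 CPM and the WT total 37.9 CPM; KO levels with WT shares gave 30.2 CPM, and WT levels with KO shares gave 20.2 CPM. Exchanging the shares thus moved Il1r1 further than exchanging the levels. Rora behaved the other way round: the totals were 757 CPM in KO and 862 CPM in WT mice, KO levels with WT shares gave 758 CPM, and WT levels with KO shares gave 905 CPM. For Ccr6 the totals were 1.25 CPM in KO and 7.98 CPM in WT mice, KO levels with WT shares gave 1.94 CPM, and WT levels with KO shares gave 4.37 CPM. For Tmem176a the totals were 121 CPM in KO and 268 CPM in WT mice, and the exchanges lay between them, at 180 CPM for KO levels with WT shares and 200 CPM for WT levels with KO shares. Tmem176b was alike, with totals of 194 CPM in KO and 352 CPM in WT mice and exchanges of 261 CPM for KO levels with WT shares and 285 CPM for WT levels with KO shares. For the TMEM176 pair, exchanging the shares or the levels moved the total part of the way, and for Ccr6 the levels moved the total more than the shares did. For Il23r the totals were 7.51 CPM in KO and 11.9 CPM in WT mice, and KO levels with WT shares gave 13.2 CPM, above the WT total, while WT levels with KO shares gave 6.29 CPM, below the KO total.

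Within the Th17 cluster, 5 of the 6 genes passed the filter on low counts, and Tmem176a was the 1 gene called lower in KO mice. Here 2.57% of the 5558 genes tested there were called lower and 2.52% higher. Rora had 1051, 1182 and 1272 CPM (lowest, median, highest) in KO mice and 1089, 1181 and 1246 CPM in WT mice. The ranges coincided, and the log2 fold change was -0.03 ± 0.06 (adjusted p = 0.921).

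The cytokine receptors of Th17 cells overlapped between genotypes. Il23r had 37.5, 51.5 and 105 CPM in KO mice and 35.7, 44.3 and 62.5 CPM in WT mice, with a log2 fold change of 0.19 ± 0.22 (adjusted p = 0.766). Il1r1 had 77.3, 120 and 161 CPM in KO mice and 105, 139 and 156 CPM in WT mice, with a log2 fold change of -0.25 ± 0.15 (adjusted p = 0.492). Neither gene was called, which does not show that the genotypes were equal. Il17a, the cytokine that defines these cells, averaged 1261 ± 608 CPM in KO mice and 896 ± 346 CPM in WT mice and was not called either (log2 fold change 0.46 ± 0.25, adjusted p = 0.395).

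Ccr6 did not pass the filter in Th17 cells, with 1 to 3 UMIs per KO mouse and 7 to 51 per WT mouse. These came to 3.36, 5.85 and 15.7 CPM (lowest, median, highest) in KO mice and 13.8, 25.5 and 35.4 CPM in WT mice. The ranges overlapped through KO mouse HT2 alone, whose level rests on 2 UMIs. A fit with no filter gave a log2 fold change of -2.23 ± 0.38 (adjusted p = 8.2e-05), in a fit that called 1.8% of its 11886 genes lower.

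Tmem176a in Th17 cells had 406, 450 and 733 CPM in KO mice and 558, 654 and 789 CPM in WT mice. KO mouse HT4 lay among the WT mice and the other 5 KO mice below all of them. The log2 fold change was -0.48 ± 0.12 (adjusted p = 0.0162), and without HT1 and HT2 it was -0.47 and no longer passed (adjusted p = 0.0571). Tmem176b had 502, 625.3 and 898 CPM in KO mice and 685, 817 and 988 CPM in WT mice, with a log2 fold change of -0.38 ± 0.11 that missed the threshold (adjusted p = 0.0587). Without HT4, Tmem176b passed (adjusted p = 0.00506), as it did without WT mouse HT11 (adjusted p = 0.0367) and with no filter (adjusted p = 0.00649).

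Shares of cells with at least 1 UMI gave the same order after random thinning of every cell to 1500 UMIs, for which 491 KO and 407 WT cells were too shallow. In thinned Th17 cells, a Ccr6 UMI was present in 1.2% ± 0.76 of KO cells and 3.54% ± 0.98 of WT cells (mean and SD of 6 mice each). Tmem176a was detected in 44.2% ± 7.71 of KO and 56.2% ± 5.01 of WT Th17 cells, and Tmem176b in 53.5% ± 7.91 and 64.6% ± 5.99. These 3 genes were thus detected in a smaller share of KO than of WT Th17 cells, also at matched depth. For Il23r the shares were 8.04% ± 3.96 in KO and 6.01% ± 1.37 in WT Th17 cells, and for Il1r1 15.3% ± 4.11 and 17% ± 2.83. The Il23r share was thus higher and the Il1r1 share lower in KO mice, and neither difference was tested. Unthinned shares in Th17 cells were 2.25% in KO and 7.54% in WT mice for Ccr6, 15.7% and 13.4% for Il23r, 26.6% and 33.2% for Il1r1, 62% and 77.3% for Tmem176a and 70.3% and 84.4% for Tmem176b. Cytotoxic cells, in which the 3 receptor genes should be rare, gave thinned shares of 0.173% in KO and 0.183% in WT mice for Il1r1, 0.186% and 0.0221% for Il23r, and 0% and 0.0614% for Ccr6. The median depth before thinning was 3163 UMIs in KO and 3475 in WT Th17 cells, and 2351 and 2574 in cytotoxic cells, among cells deep enough to thin. The Th17 shares of the receptor genes lay above those in cytotoxic cells. This is a description and no check, because the authors cut both clusters using expression that includes these genes.

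Detection of the genes in the same Th17 cells was also recorded, as a description at full depth. Among Th17 cells with an Il23r UMI, 23 of 78 KO cells (29.5%, exact 95% interval 19.7 to 40.9) and 124 of 229 WT cells (54.1%, 47.5 to 60.7) also had an Il1r1 UMI. Among Th17 cells without one, 27% of KO and 30.7% of WT cells had an Il1r1 UMI. The cells in which both cytokine receptor RNAs were detected were thus a smaller part of the Il23r-positive KO cells. Those KO cells were also shallower, with a median of 3314.5 UMIs against 3875 in WT mice, and depth was not matched. The shares pool cells over mice, the intervals cover counting error only, and cells of a mouse are not independent. Of the Th17 cells with Tmem176b, 307 of 401 KO cells (76.6%) and 1193 of 1412 WT cells (84.5%) also had Tmem176a, against 30.9% of KO and 44.3% of WT cells without Tmem176b.

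Outside the Th17 cluster, Rora was called lower in recirculating, cytotoxic and the unnamed clusters, and not in cycling or regulatory cells. Differences from Th17 cells were tested apart, as given further on, and the test against recirculating cells did not pass. In recirculating cells, 3 of the 6 genes were called lower in KO mice (Rora, Tmem176a and Tmem176b) out of 4 that passed the filter, where 3.3% of all tested genes were called lower and 2.17% higher. Rora had 673, 742 and 828 CPM in KO mice and 832, 858 and 895 CPM in WT mice, without overlap, and fell by 0.26 ± 0.06 on the log2 scale (adjusted p = 0.0039). Tmem176a had 97.9, 117 and 163 CPM in KO mice and 183, 236 and 303 CPM in WT mice, a fall of 0.92 ± 0.12 (adjusted p = 1.7e-05). Tmem176b had 131, 186 and 250 CPM in KO mice and 286, 298 and 442 CPM in WT mice, a fall of 0.76 ± 0.12 (adjusted p = 1.2e-04). For the TMEM176 pair, too, no KO mouse overlapped with a WT mouse. The share of all genes with such a pattern was counted over all cells only, and not within this or any other cluster. Il1r1 in recirculating cells averaged 12 CPM in KO and 20.3 CPM in WT mice and was not called (log2 fold change -0.70 ± 0.26, adjusted p = 0.144), although it passed without KO mouse HT6 (-1.23, adjusted p = 0.00364). Ccr6 did not pass the filter there, with 0 to 7 UMIs per KO mouse and 3 to 15 per WT mouse, and a fit with no filter gave -1.60 ± 0.46 (adjusted p = 0.0395; 2.41% of all genes in it called lower).

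Cytotoxic cells, whose programme is built on granzymes and not on IL-17, showed a Rora difference, while the TMEM176 pair was not called there and varied widely between mice. Rora had 379, 473 and 527 CPM in KO mice and 557, 692 and 774 CPM in WT mice, did not overlap and fell by 0.54 ± 0.09 (adjusted p = 5.9e-04); it was the 1 gene called lower out of 3 that passed the filter, against 1.58% of all genes tested. Tmem176a averaged 51.3 CPM in KO and 54.8 CPM in WT mice, with a log2 fold change of -0.01 ± 0.32 (adjusted p = 1.0). Tmem176b averaged 98.5 CPM in KO and 93.4 CPM in WT mice, with a log2 fold change of 0.06 ± 0.28 (adjusted p = 0.970). The fold change in Th17 cells minus that in cytotoxic cells did not pass with limma for either gene (Tmem176a -0.36, adjusted p = 0.672, and Tmem176b -0.51, adjusted p = 0.559).

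In unnamed 3, Rora had 755, 775 and 840 CPM in KO mice and 995, 1059 and 1162 CPM in WT mice. Tmem176a had 41.2, 53.9 and 67.9 CPM in KO mice and 85.2, 133 and 179 CPM in WT mice, and Tmem176b had 97.6, 113 and 192 CPM in KO mice and 207, 231 and 313 CPM in WT mice. None of these overlapped between genotypes, a pattern whose share of all genes was not counted there. All 3, the ones that passed the filter, were called lower, where 5.33% of all tested genes were called lower and 3.09% higher. The falls were 0.52 ± 0.06 for Rora, 1.33 ± 0.17 for Tmem176a and 1.07 ± 0.14 for Tmem176b on the log2 scale, with edgeR adjusted p-values of 5.4e-06, 5.7e-06 and 7.1e-06. In unnamed 1, Rora averaged 787 CPM in KO and 1011 CPM in WT mice and fell by 0.41 ± 0.07 (adjusted p = 3.5e-04). Tmem176a in unnamed 1 averaged 76.9 CPM in KO and 135 CPM in WT mice and was called at -0.80 ± 0.22 (adjusted p = 0.0345), a call that did not hold without any 1 of KO mice HT1, HT2, HT3, HT5 and HT6 or WT mice HT9, HT10, HT11 and HT12 (adjusted p up to 0.137). These were the 2 genes called lower in unnamed 1 out of 3 that passed the filter, and 2.9% of all tested genes were called lower there.

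In cycling cells, Tmem176a averaged 143 CPM in KO and 255 CPM in WT mice and was the 1 gene called lower out of 3 that passed the filter (-0.81 ± 0.21, adjusted p = 0.0239), where 2.92% of all tested genes were. That call did not hold without KO mice HT2 or HT3 or WT mice HT8, HT10 or HT12. Rora there averaged 531 CPM in KO and 567 CPM in WT mice and was not called (-0.14 ± 0.09, adjusted p = 0.474). In regulatory cells only 5 KO and 3 WT mice had at least 20 cells. Tmem176b had 0 to 7 UMIs per KO mouse and 10 to 25 per WT mouse tested. It thus passed the filter through its level in WT mice, so its call adds no support. The edgeR fit gave -3.02 ± 0.49 (adjusted p = 0.0099), and Tmem176b was the 1 gene called out of 2 that passed the filter. Of all tested genes 0.342% were called lower there. This call did not hold without KO mice HT1 (adjusted p = 0.0644) or HT2 (0.0530) or WT mouse HT12 (0.0826). Il23r had no UMI in regulatory cells of either genotype.

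The change of fold between clusters was tested within mice, with limma on the difference of log2 CPM between Th17 cells and each other cluster. For Rora the KO effect in Th17 cells exceeded that in cytotoxic cells by 0.53 ± 0.09 (log2, adjusted p = 0.0104), that in unnamed 1 by 0.38 ± 0.07 (0.0082) and that in unnamed 3 by 0.49 ± 0.08 (0.00108). These are positive because Rora was lower in KO mice in those clusters and not in Th17 cells, and they are among few genes to pass: 0.676%, 0.463% and 0.825% of all genes tested against cytotoxic, unnamed 1 and unnamed 3. Against recirculating cells the Rora difference was 0.22 ± 0.07 and did not pass (adjusted p = 0.284; 0.0899% of genes passed). Tmem176a differed between Th17 cells and unnamed 3 by 0.79 ± 0.16 (adjusted p = 0.0142), its fall being larger in unnamed 3. For Tmem176b the same difference was 0.64 ± 0.17 (adjusted p = 0.0818). Against cycling and regulatory cells 0 of 5 tested genes passed with limma, where 0.492% and 0.0533% of all genes did. At an unadjusted p under 0.05 there were 2 against each, and an edgeR interaction test called 0 against cycling and 1 against regulatory cells. For Ccr6, Th17 against recirculating cells gave -0.57 ± 0.50 (adjusted p = 0.776), so its lower level was not shown to differ between these clusters.

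**Figure D4:**
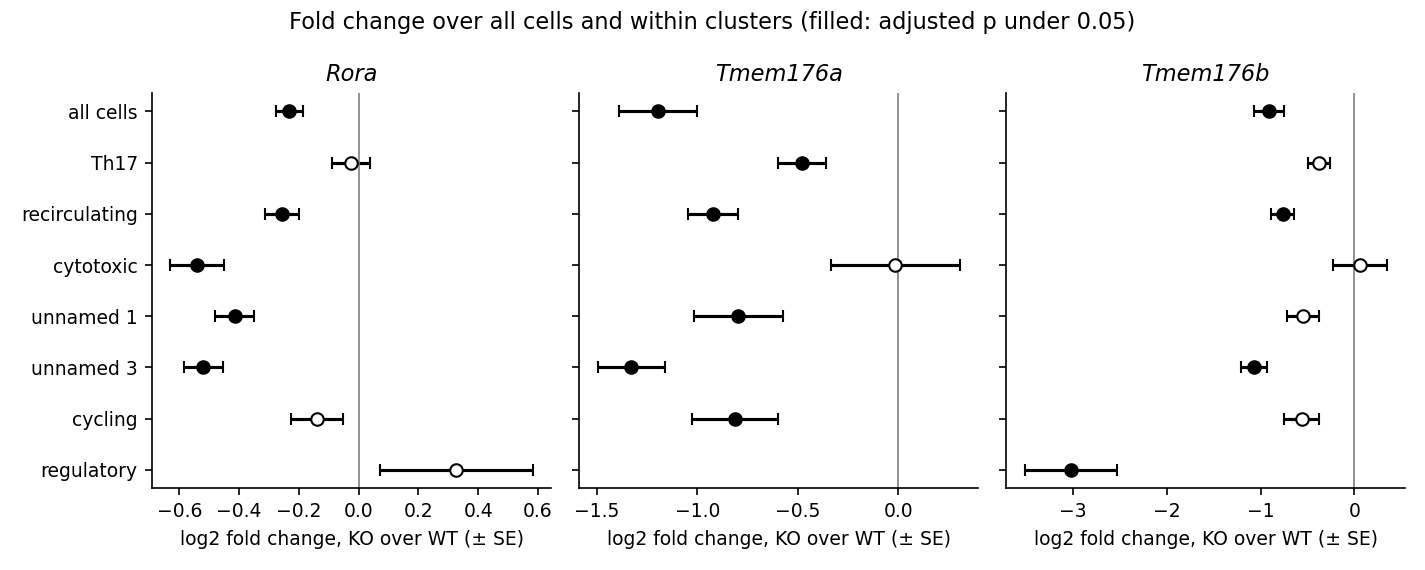
Log2 fold change of KO over WT mice for Rora, Tmem176a and Tmem176b, over all cells and within each cluster, with standard errors and filled symbols where the edgeR adjusted p is under 0.05. Rora sits at -0.03 in Th17 cells and at -0.54 in cytotoxic cells, while Tmem176a sits at -0.48 in Th17 cells and at -1.33 in unnamed 3.

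Genes of the same pathways were called in both directions. Over all cells 7.04% of all genes tested were called higher, and the median log2 fold change of all genes was close to 0. Of 18 receptor partners and signalling genes, 16 were tested, 5 rose and 1 fell, with a median of 0.13. The one that fell was Il1r2, the decoy receptor that binds IL-1 without signalling, at 51.4 CPM in KO and 201 CPM in WT mice (-1.99 ± 0.28, adjusted p = 2.2e-04). Among those that rose were Il12rb1, the chain that IL-12 and IL-23 receptors share (0.73, adjusted p = 2.5e-04), and the kinase gene Jak2, which acts downstream of both (0.76, adjusted p = 0.00128). The 2 IL-1 receptor genes, signalling and decoy, were thus both lower in KO mice over all cells. With clusters weighted alike, Il1r2 was still called (-1.34, edgeR adjusted p = 4.3e-05) and Il1r1 was not (-0.46, adjusted p = 0.0657). A difference between the 2 genes was not tested.

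Of 12 Th17 transcription factor genes, all tested, 5 rose and 4 fell over all cells, with a median of 0.08. Ahr, the aryl hydrocarbon receptor, rose by 0.79 (adjusted p = 3.8e-05) and Maf by 0.58 (adjusted p = 0.00552), whereas Batf, an AP-1 factor needed for Th17 differentiation, fell by 0.78 (adjusted p = 4.9e-04). Of 7 Th17 products, 1 rose and 2 fell. Csf2, which encodes GM-CSF, rose by 0.99 (adjusted p = 0.0107), Il22 fell by 1.61 (adjusted p = 0.0197), and Il17a stood at -0.95 ± 0.36 without passing (adjusted p = 0.0872). With clusters weighted alike, Ahr, Batf and Csf2 were still called in the same directions. Maf (0.19, edgeR adjusted p = 0.186) and Il22 (-0.11, adjusted p = 0.884) were not. In Th17 cells Il22 stood at 0.06 (edgeR adjusted p = 0.969). Of 14 homing receptor genes, 11 were tested, 2 rose and 3 fell: the gut-homing receptor gene Ccr9 fell by 1.98 (adjusted p = 0.00368) and Cxcr4 by 1.54 (adjusted p = 3.8e-05), while Ccr2 rose by 0.85 (adjusted p = 1.1e-04). Of 9 tested genes of the ROR and REV-ERB clock loop, in which RORα acts, 0 were called by edgeR and 0 by DESeq2, with 1 at an unadjusted p under 0.05. Of 5 tested MS4A genes, relatives of the TMEM176 pair, 0 were called by edgeR and 0 by DESeq2, with 0 at an unadjusted p under 0.05.

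Inside Th17 cells, where 2.57% of all tested genes were called lower and 2.52% higher, of 12 receptor partners tested 1 was called, Il1r2, which fell by 1.21 (adjusted p = 1.3e-04). Of 12 transcription factor genes, 3 rose, among them Ikzf3 by 0.95 and Ahr by 0.69, and 1 fell, Hif1a by 0.37. Of 6 products tested, Ccl20, the ligand of CCR6, rose by 2.81 and Csf2 by 1.68, while Cxcl3 fell by 3.17. In KO Th17 cells the ligand gene Ccl20 was thus called higher. The receptor gene Ccr6 had 11 UMIs in KO and 164 in WT Th17 cells. It did not pass the filter there, so an opposite change of ligand and receptor was not shown. Homing receptors showed 1 rise, Ccr2 by 0.94, and 4 falls, among them Cxcr4 by 1.09, Ccr8 by 1.13 and Ccr4 by 1.07. Of 7 clock loop genes tested 1 rose, Nfil3 by 0.62 (adjusted p = 0.00376), and of 2 MS4A genes 1 rose, Ms4a4b by 0.35 (adjusted p = 0.0493). In recirculating cells, where 3.3% of all tested genes were called lower and 2.17% higher, of 13 receptor partners tested 2 rose and 1 fell, Il1r2 by 1.10. Of 12 transcription factor genes tested there 2 fell, Batf by 0.65 and Hif1a by 0.51, of 4 products 1 fell, Il22 by 2.19, and of 10 homing receptor genes 1 fell, Cxcr4 by 0.62. In unnamed 3, where 5.33% of all tested genes were called lower and 3.09% higher, of 10 receptor partners tested 1 fell, again Il1r2, which fell by 2.75, and of 11 transcription factor genes 3 fell, among them Batf by 1.14. Of 8 homing receptor genes tested there 1 rose and 2 fell, and of 2 MS4A genes Ms4a4b rose by 0.31 (adjusted p = 0.0188). Il1r2 was thus called lower in KO mice in each of these 3 clusters, whereas Il1r1 was not called in Th17 or recirculating cells and did not pass the filter in unnamed 3; a difference between the 2 genes was not tested. With clusters weighted alike over all cells, where 4.9% of all tested genes were called lower and 4.1% higher, 2 receptor partners rose and 1 fell, 1 transcription factor gene rose and 2 fell, 2 products rose and 1 fell, and 1 homing receptor gene rose and 4 fell.

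Finally, each of the 6 genes was set against all others by the Pearson correlation of log2(CPM + 1) over the 14 sums of 7 clusters by 2 genotypes. These points share a library and differ in depth, so r is a description. Tmem176a and Tmem176b were each most like the other, with r of 0.99, and Prelid2 came next for Tmem176a at 0.95. Il1r1 was most like Avpi1 at 0.93, with Tmem176a and its decoy counterpart Il1r2 both at 0.92. Il23r was most like Il17a and Il22, both at 0.92. Rora was most like Ern1 and Itpr1, both at 0.96, and Cyb5a and Tiam1 were among the 5 genes most like Ccr6. When only the 7 WT sums were used, 4 of the 5 genes nearest to Il1r1 were again among its nearest 5, 3 for Tmem176a, 2 each for Tmem176b, Rora and Il23r, and 0 for Ccr6.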

How the data were processed

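The deposited table holds raw counts of UMIs (11971 genes by 18860 cells), and a second table by the authors annotates every cell with its mouse, genotype, cluster and subset. That annotation also holds, as deposited, a percent of mitochondrial UMIs (median 0.81% to 0.83% in KO and 0.85% to 0.935% in WT mice) and a doublet score, whose highest value was 0.354; no doublet caller was run here. Cell Ranger 3.1.0, Seurat 3.1.5 and the builds GRCm38 and mm10 are named, per the submitters' processing notes; cell filters and the use of strand are not given in the sources used here. No per-sample value column was left unmatched. The genotype of every cell matched the hashtag table, and 0 barcodes were shared by cells.

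Sums of UMIs were made for each mouse over all cells and, where it had at least 20 cells, over each cluster, and tested with the edgeR 4.0.16 quasi-likelihood F test in R 4.3.3 (TMM, filterByExpr, no covariates, two-sided). Benjamini-Hochberg adjustment ran over all genes tested, and an adjusted p under 0.05 was called. The SE is the log2 fold change divided by the square root of F. Differences between clusters were tested with limma 3.58.1 on within-mouse differences of log2 CPM (prior count 2). CPM used all UMIs of the mouse or cluster. Shares of cells, UMI sources, co-detection, ratios and correlations are descriptions. Intervals are exact (Clopper-Pearson) and cover counting error only. The labels do not say whether mice of a genotype shared a donor, so p-values measure the spread between mice. The tests were also run on simulated counts with known changes, drawn independently for each mouse and cluster with the same spread for every gene. This does not check genes of other spread or clusters that share a mouse.

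The 6 genes and all lists were chosen with earlier results of these data known. By rule, the text names the 6 genes, Il17a as a Th17 reference, up to 4 genes of each related list with the smallest p over all cells and in Th17, recirculating and unnamed 3 cells, and up to 5 genes most like each of the 6 (mean log2 CPM of at least 4). Alternatives were DESeq2 size factors, DESeq2 1.42.0, no filter on low counts, each mouse left out, no KO mice HT1 and HT2, no cycling cells, equal cells per mouse, clusters weighted alike, at least 50 cells, a prior count of 0.5, an edgeR interaction term, thinning to 500 UMIs or none, and WT clusters alone. Promoter sequences are RefSeq, GRCm38.p6. Some genes that these rules take are not reported here.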

Additional observations from a re-analysis of the deposited data

Results flagged for a closer look

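Of 60 groups of mice examined, 5 held a mouse far from the others of its genotype, where chance flags about 1 group in 20. Tmem176a in Th17 cells stood at 733 CPM in KO mouse HT4, against 406 to 508 CPM in the other KO mice. In cytotoxic cells Tmem176a stood at 105 CPM in KO mouse HT4, where the other KO mice had 34.6 to 54.5 CPM, and at 106 CPM in WT mouse HT11, where the other WT mice had 24.2 to 54.4 CPM. Tmem176b in unnamed 3 stood at 192 CPM in KO mouse HT6, against 97.6 to 121 CPM in the other KO mice. Tmem176b in recirculating cells stood at 442 CPM in WT mouse HT12, against 286 to 345 CPM in the other WT mice.

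The difference between KO and WT mice itself differed between clusters in 4 tests with limma. For Rora the log2 fold change in Th17 cells minus that in cytotoxic cells was 0.53, minus that in unnamed 1 was 0.38 and minus that in unnamed 3 was 0.49. For Tmem176a the log2 fold change in Th17 cells minus that in unnamed 3 was 0.79.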

How the results depend on the processing

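Over all cells, Rora, Tmem176a and Tmem176b were called lower in KO mice under each of 19 alternatives, with log2 fold changes of -0.34 to -0.21, -1.36 to -0.74 and -1.02 to -0.59. Ccr6 was also called in all 19 (-2.96 to -1.94). Apart from the fit with no filter, these filtered on low counts. Ccr6 entered the main fit mainly through its level in WT mice, so the number of its calls adds no support. Il1r1 was called in 18 of 19 and lost with clusters weighted alike (-0.46), the setting in which Il23r (0.30) and Il17a (0.40) turned sign. The 4 differences between clusters given as called held in all 14 alternatives each. Leaving out 1 mouse at a time moved Il23r in Th17 cells between -0.037 and 0.37, Tmem176a in cytotoxic cells between -0.50 and 0.35, Tmem176b in cytotoxic cells between -0.17 and 0.43, and the Rora difference of Th17 minus regulatory cells between -0.52 and 0.0069; the cause was not tested. Without HT1 and HT2, Tmem176a in cytotoxic cells stood at 0.071.

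The number of the 6 genes called lower in Th17 cells, 1 as reported, was 3 with no filter, 2 with at least 50 cells per mouse, and 1 to 3 with 1 mouse left out (2 without any 1 of HT1, HT2, HT3, HT5 and HT6, and 3 without HT4 or HT11). In unnamed 1 it was 2 as reported, 1 with the DESeq2 test, 1 without HT1 and HT2, and 1 to 3 with 1 mouse left out. In cycling cells it was 1 as reported, 2 with no filter, 0 with the DESeq2 test, 0 without HT1 and HT2, and 0 to 2 with 1 mouse left out (2 without HT4 or HT6). In regulatory cells it was 1 as reported, 2 with no filter, 0 without HT1 and HT2, and 0 to 1 with 1 mouse left out. Between Th17 and regulatory cells 0 of the genes differed as reported, 1 by the edgeR interaction test and 0 to 2 with 1 mouse left out (2 without HT6). Ccr6 in Th17 cells, with 1 to 3 UMIs per KO mouse, was tested with no filter and in 9 further fits (-2.48 to -2.04) whose filter it passed mainly through its level in WT mice, so these add no support; the other alternatives did not test it. No paired analysis was possible because the labels give no replicate number that KO and WT mice share.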
